A study of Mus musculus with 23 samples.

Results

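H2-Ab1, Cd74, Ctss and H2-Ob, 4 genes of major histocompatibility complex (MHC) class II antigen presentation, were chosen by name from the 754 genes of a NanoString nCounter myeloid panel. All 4 were above the detection floor in each of 23 mouse left lungs, so none was lost to the filter on low values, and they were read among 711 genes tested. The panel counts colour-coded probes bound to transcripts without amplification. Each mouse had been given 14 instillations, either organic dust extract or saline (PBS) alone. Fat-1 mice carry a desaturase gene of Caenorhabditis elegans whose product makes omega-3 from omega-6 fatty acids. Wild-type (WT) mice do not carry the gene. The sources used here do not state the age, the strain background or the promoter of the transgene. The groups were Fat-1 dust (3 female and 3 male lungs), Fat-1 saline (2 female and 3 male), WT dust (4 female and 3 male) and WT saline (2 female and 3 male), with 1 lung per mouse and every lung lavaged before the left lobe was stored.

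In class II presentation, an antigen-presenting cell cuts ingested protein in its endosomes and displays the peptides to CD4 T cells on a pair of class II chains. H2-Ab1 is the beta chain of the class II molecule H2-A. Cd74, the invariant chain, holds the new molecule and blocks its groove until it reaches the endosome. Ctss, cathepsin S, is the protease that trims the last part of the invariant chain, and H2-Ob is the beta chain of H2-O, which restrains the peptide editor H2-DM and is found mostly in B cells. In lung, class II molecules are carried by dendritic cells, macrophages, B cells and type II alveolar epithelial cells.

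Values are normalized counts, meaning probe counts that the authors scaled lung by lung, with a floor of 20. The counts recovered from them totalled 110453 to 812429 in a lung, with between 66 and 232 genes at the floor. The epithelial genes Cdh1 and Lamp3 and the endothelial gene Cdh5 were above the floor in every lung labelled as left lung. The extract codes carry 2 extraction days, with 12 lungs on day 1 and 11 on day 2, and the cartridge followed the day for all but 2 lungs of each. The title, characteristics and extract code gave different groups for 4 lungs, and the code was followed. The scanner wrote a saturation message for 2 lungs, Fat-1 male dust replicate 1 and WT male saline replicate 1, both of day 2. Earlier results of these data put a further 2 lungs in doubt on technical measures. In WT female saline replicate 1 of day 2 the strongest positive control probe counted 46929 and the negative probes averaged 19.75, both the highest of the 23 lungs. In Fat-1 female dust replicate 2 of day 1 the positive probe counted 5099, lower than in every lung but the 2 with a message. Results are given with all lungs. Without these 4 lungs the log2 fold changes of dust over saline were 1.79 for Ctss, 0.67 for Cd74 and 0.58 for H2-Ab1, all called as with them. The desaturase itself was not analysed here.

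Promoter sequence of 300 bases, 250 before and 50 after the start site, was read from RefSeq (GRCm38.p6). It was found for 2 of the 4 genes, H2-Ob and Ctss, and H2-Eb1 and H2-DMb1, class II genes of the same panel, are shown beside them because genes of this family share a pair of promoter boxes. For the H2 genes capitals mark AGNAAC, a core of the X1 box, and GATTGG, the Y box. For Ctss they mark GAAANNGAA, a core of interferon-response elements, and GAGGAAGT, a core bound by PU.1, a myeloid factor. Both strands were searched, and the letters were chosen with these sequences in view.
H2-Ob, chr17:34238655-34238954, plus strand: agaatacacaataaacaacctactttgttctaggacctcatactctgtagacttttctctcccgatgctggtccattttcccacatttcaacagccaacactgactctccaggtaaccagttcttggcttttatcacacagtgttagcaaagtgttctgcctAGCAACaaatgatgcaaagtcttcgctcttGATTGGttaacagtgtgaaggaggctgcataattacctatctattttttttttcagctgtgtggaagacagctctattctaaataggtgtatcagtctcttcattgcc
H2-Eb1, chr17:34305617-34305916, plus strand: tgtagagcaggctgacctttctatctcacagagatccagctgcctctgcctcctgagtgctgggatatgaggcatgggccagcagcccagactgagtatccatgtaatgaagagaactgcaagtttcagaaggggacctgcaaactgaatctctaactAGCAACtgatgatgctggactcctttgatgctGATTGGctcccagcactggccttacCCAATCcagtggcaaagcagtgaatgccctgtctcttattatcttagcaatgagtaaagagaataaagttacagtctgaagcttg
H2-DMb1, chr17:34152941-34153240, plus strand: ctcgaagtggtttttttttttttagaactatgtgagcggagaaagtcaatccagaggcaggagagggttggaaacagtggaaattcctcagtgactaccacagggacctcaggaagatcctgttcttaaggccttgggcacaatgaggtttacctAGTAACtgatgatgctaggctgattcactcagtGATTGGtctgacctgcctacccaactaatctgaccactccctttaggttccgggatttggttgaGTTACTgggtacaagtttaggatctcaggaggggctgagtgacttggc
Ctss, chr3:95526536-95526835, plus strand: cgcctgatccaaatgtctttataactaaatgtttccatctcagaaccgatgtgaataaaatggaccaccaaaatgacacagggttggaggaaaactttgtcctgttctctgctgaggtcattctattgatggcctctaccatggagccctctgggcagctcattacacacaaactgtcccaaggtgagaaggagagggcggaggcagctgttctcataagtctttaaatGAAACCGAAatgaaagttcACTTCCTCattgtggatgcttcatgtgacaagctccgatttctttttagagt

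In H2-Ob the X1 core began 88 bases before the start site and the Y box 58 bases before it, 30 bases apart. The same pair lay 32 bases apart in H2-Eb1 and 33 bases apart in H2-DMb1. On the minus strand H2-Eb1 held a further Y box 35 bases before the start and H2-DMb1 a further X1 core just after it. The window of H2-Aa, not printed, held a Y box 49 bases before the start and no AGNAAC. Ahead of that Y box it held ggcaac, which differs from the searched core in the first letter. An X1 core followed by a Y box 15 to 45 bases on along 1 strand was present in 190 of 32851 RefSeq promoters of this length (0.578%). Alone, AGNAAC was in 48.1% of them and GATTGG in 16.1%, so either core by itself is common. The Ctss window held neither core. It held GAAANNGAA 21 bases and GAGGAAGT, on the minus strand, 2 bases before the start site, motifs present in 8.56% and 3.2% of promoters, and these matches did not overlap. A match describes letters only.

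Dust instillation was compared with saline over both genotypes and sexes. Ctss, Cd74 and H2-Ab1 rose in dust lungs, and H2-Ob was not called. Over all genes, 308 of 711 (43.3%) were called higher and 71 lower, so 3 of 4 members called higher stands against a background in which such calls were common. The test was limma on log2(value + 1) with Benjamini-Hochberg adjustment over all 711 genes, and a call is an adjusted p under 0.05. These are whole-lung values, in which a change in the number of cells of a type and a change in RNA per cell cannot be told apart.

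H2-Ab1 had a lowest, median and highest normalized count of 4358, 8077 and 16272 in the 13 dust lungs, against 3957, 4472 and 6549 in the 10 saline lungs. Of the dust lungs, 10 lay above the highest saline lung, and 12 lay above the saline median. It averaged 8122 ± 2853 in dust lungs (SD, n = 13) and 4792 ± 880 in saline lungs (SD, n = 10). That is a log2 difference of 0.71 (SE 0.16, limma adjusted p = 0.00149), or 1.64-fold. With each lung centred on its median gene it was 0.32 (limma adjusted p = 0.0371).

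Cd74 ranged from 8750 to 53402 around a median of 16175 in dust lungs, against 7460 to 12462 around a median of 8813 in saline lungs. It was above the highest saline lung in 11 of 13 dust lungs. Its mean was 17982 ± 11092 in dust lungs (SD, n = 13) and 9361 ± 1709 in saline lungs (SD, n = 10). The highest dust lung, Fat-1 female replicate 2 of day 1, carried much of that spread, with 53402 against 19717 in the next. On the log2 scale it was higher by 0.81 (SE 0.20, limma adjusted p = 0.00285), or 1.76-fold. It was 0.67 without that lung (limma adjusted p = 0.0013) and 0.42 with lungs centred on their median (limma adjusted p = 0.0356).

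Ctss had the highest fold change of the 4. Its lowest, median and highest normalized counts were 1886, 5710 and 13504 in dust lungs, against 1196, 1537 and 2121 in saline lungs. A single dust lung, WT female replicate 2 of day 2, lay within the saline range, and the other 12 were above all 10 saline lungs. Every dust lung being above every saline lung occurred in 25 of 711 genes (3.52%), and none of the 4 members was among them. Ctss averaged 6201 ± 2799 in dust lungs (SD, n = 13) and 1578 ± 308 in saline lungs (SD, n = 10), a log2 fold change of 1.85 (SE 0.24, limma adjusted p = 1.58e-05), or 3.6-fold.

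H2-Ob overlapped fully between exposures. It had 133, 230 and 489 normalized counts as lowest, median and highest in dust lungs, against 166, 246 and 281 in saline lungs. Only 3 of 13 dust lungs lay above the highest saline lung, and the lowest value of all 23 lungs was that of a dust lung. The means were 257 ± 94.3 in dust lungs (SD, n = 13) and 233 ± 38.8 in saline lungs (SD, n = 10). Its log2 fold change of 0.07 (SE 0.18, limma adjusted p = 0.76) became -0.32 with lungs centred on their median (limma adjusted p = 0.101) and -0.07 with lungs scaled on housekeeping genes (limma adjusted p = 0.764), so its sign followed the scaling.

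**Figure D1:**
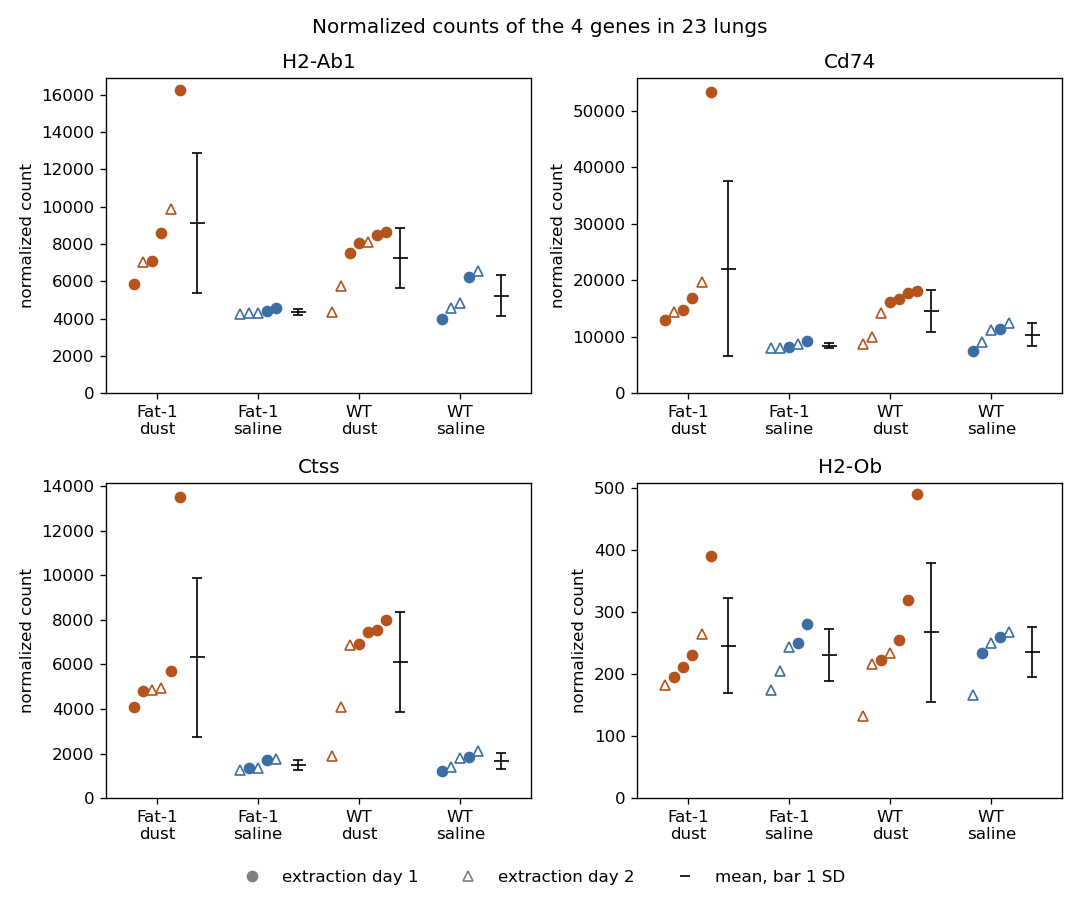
Normalized count (vertical axes, from 0) of H2-Ab1, Cd74, Ctss and H2-Ob in each lung, by genotype and exposure. Filled circles are lungs of extraction day 1, open triangles lungs of day 2, and black marks the mean with 1 SD. Ctss is higher in dust lungs than in the 10 saline lungs in all but 1 lung, while H2-Ob overlaps between all groups.

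The WT female dust lung of day 2 with replicate number 2 had 4358 H2-Ab1, 8750 Cd74, 1886 Ctss and 216 H2-Ob normalized counts. All but H2-Ob were the lowest of the 13 dust lungs. The summed normalized counts of neutrophil markers in this lung were 2198, within the saline range of 1904 to 3853, and those of endothelial markers were 8770, within the saline range of 8267 to 10702. Its title, characteristics and code gave the same group, and the part of these markers in its member values was not tested.

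**Figure D2:**
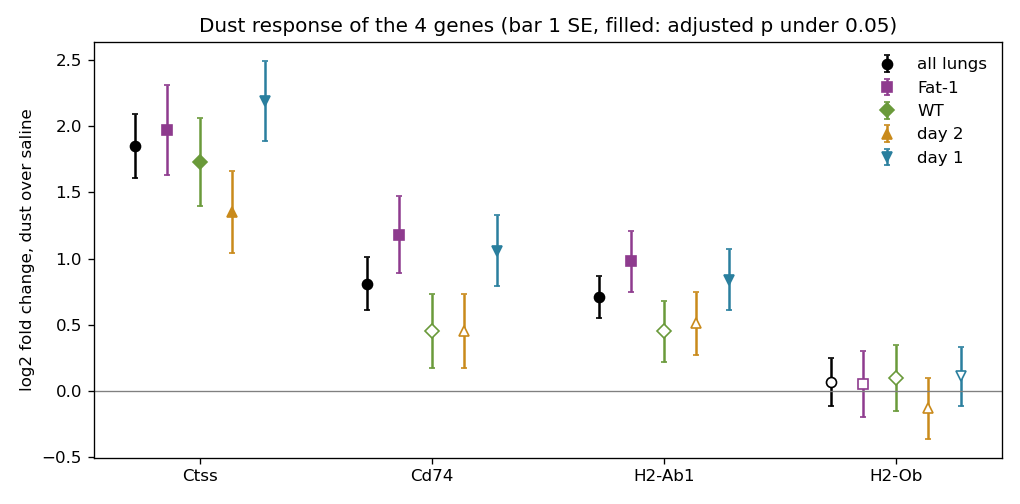
Log2 fold change of dust over saline (vertical axis) with 1 SE for the 4 genes over all lungs, in Fat-1 mice, in WT mice, and on each extraction day. Filled symbols passed an adjusted p under 0.05 in limma. Ctss is called in all 5 comparisons shown and H2-Ob in none.

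The same contrast was then read within each genotype. In Fat-1 mice 3 of the 4 members were called higher, against 32.2% of all genes, and in WT mice Ctss was the 1 member called, against 30.7% of all genes. The WT share was 14.9% without WT female saline replicate 1 of day 1, and the Fat-1 share 20.4% without Fat-1 female saline replicate 1 of day 2. H2-Ab1 had 5862, 7842.5 and 16272 normalized counts as lowest, median and highest in the 6 Fat-1 dust lungs. The 5 Fat-1 saline lungs had 4221, 4282, 4302, 4390 and 4573, all below every Fat-1 dust lung, a separation seen in 19% of all genes in Fat-1 mice and in 6.75% in WT mice. In WT mice the 7 dust lungs ran from 4358 to 8633 with a median of 8077, and the 5 saline lungs had 3957, 4554, 4856, 6236 and 6549, so that the exposures overlapped. The log2 fold change was 0.98 in Fat-1 mice (SE 0.23, limma adjusted p = 0.00609) and 0.45 in WT mice (SE 0.23, limma adjusted p = 0.134). Without the low WT female dust lung of day 2 the WT value was 0.56 and was called (limma adjusted p = 0.0376).

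Cd74 followed the same order. Its 6 Fat-1 dust lungs ran from 13030 to 53402 with a median of 15814. The 5 Fat-1 saline lungs had 8004, 8047, 8220, 8653 and 9203. The 7 WT dust lungs ran from 8750 to 18102 with a median of 16175, and the 5 WT saline lungs had 7460, 8974, 11168, 11421 and 12462. Fat-1 dust and saline lungs again did not overlap, like 19% of all genes, and WT ones did. The log2 fold change was 1.18 in Fat-1 mice (SE 0.29, limma adjusted p = 0.00683) and 0.45 in WT mice (SE 0.28, limma adjusted p = 0.237).

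Ctss was called in both genotypes. The 6 Fat-1 dust lungs ran from 4082 to 13504 with a median of 4899, and the 5 Fat-1 saline lungs had 1264, 1336, 1364, 1693 and 1768. The 7 WT dust lungs ran from 1886 to 7991 with a median of 6902, and the 5 WT saline lungs had 1196, 1380, 1813, 1841 and 2121. Its log2 fold change was 1.97 in Fat-1 mice (SE 0.34, limma adjusted p = 0.00104), or 3.91-fold, and 1.73 in WT mice (SE 0.33, limma adjusted p = 0.00137), or 3.32-fold.

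H2-Ob was called in neither genotype. The 6 Fat-1 dust lungs ran from 182 to 390 with a median of 220, and the 5 Fat-1 saline lungs had 174, 205, 244, 249 and 281. The 7 WT dust lungs ran from 133 to 489 with a median of 234, and the 5 WT saline lungs had 166, 234, 250, 259 and 267. The log2 fold change was 0.05 in Fat-1 mice (SE 0.25, limma adjusted p = 0.908) and 0.10 in WT mice (SE 0.25, limma adjusted p = 0.807).

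Without the 4 lungs with differing labels the log2 fold changes in Fat-1 mice were 1.24 for Cd74 and 1.01 for H2-Ab1, with fewer lungs and neither called.

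A call in 1 genotype and not in the other does not show that the genotypes differ, so the difference itself was tested. The Fat-1 response minus the WT response was 0.74 on the log2 scale for Cd74 (SE 0.41, limma adjusted p = 0.999). For H2-Ab1 it was 0.53 (SE 0.33), for Ctss 0.24 (SE 0.47) and for H2-Ob -0.05 (SE 0.35), each with a limma adjusted p of 0.999. limma called 0 of 711 genes (0%) in this test and gave 21 an unadjusted p under 0.05. For Cd74 the difference was 0.44 without Fat-1 female dust replicate 2 of day 1, and 0.26 without the 4 lungs in doubt or with a message.

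Ordered by group mean, H2-Ab1 stood at 9119 ± 3770 in Fat-1 dust (SD, n = 6), 7267 ± 1608 in WT dust (SD, n = 7), 5230 ± 1115 in WT saline (SD, n = 5) and 4354 ± 137 in Fat-1 saline lungs (SD, n = 5). The same order held for Cd74, at 22036 ± 15542, 14506 ± 3772, 10297 ± 2032 and 8425 ± 505, and for Ctss, at 6316 ± 3559, 6102 ± 2256, 1670 ± 375 and 1485 ± 229. H2-Ob stood at 267 ± 113 in WT dust, 245 ± 76.5 in Fat-1 dust, 235 ± 40.5 in WT saline and 230 ± 41.7 in Fat-1 saline lungs. By median, Fat-1 dust lungs lay below WT dust lungs in H2-Ab1 (7842.5 against 8077), Cd74 (15814 against 16175) and Ctss (4899 against 6902). The highest Fat-1 dust lung for each of these genes was female replicate 2 of day 1. Within an exposure, Fat-1 and WT lungs were not called different in any member. After dust the Fat-1 minus WT log2 difference was 0.45 for Cd74, 0.28 for H2-Ab1, 0.04 for Ctss and -0.04 for H2-Ob. After saline it was -0.29 for Cd74, -0.25 for H2-Ab1, -0.20 for Ctss and 0.01 for H2-Ob. limma called 0 of 711 genes in either comparison, with 22 and 10 genes at an unadjusted p under 0.05.

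No member was called between female and male lungs. The female minus male log2 difference was 0.24 for Ctss, 0.22 for Cd74, 0.17 for H2-Ob and 0.16 for H2-Ab1, each with a limma adjusted p of 0.986. The female minus male difference of the dust response was 0.47 for H2-Ob (SE 0.35), 0.13 for Cd74 (SE 0.41), 0.12 for H2-Ab1 (SE 0.33) and 0.03 for Ctss (SE 0.47), each with a limma adjusted p of 0.998. limma called 0 of 711 genes in either test, with 17 and 14 genes at an unadjusted p under 0.05.

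Both extraction days held both exposures, so the response was also read within each day. On day 2, 1 of 4 members was called higher, against 9.28% of all genes, and on day 1, 3 of 4 were, against 41.5%. The day 2 background of 66 genes moved with single lungs, to 7 without Fat-1 female saline replicate 1, 18 without Fat-1 male dust replicate 1 and 123 without WT female dust replicate 2, all of day 2. It was 27 and 31 without WT female or male dust replicate 1, and 35 and 32 without Fat-1 or WT male saline replicate 2 of that day. The log2 fold change of Ctss was 1.35 on day 2 (SE 0.31, limma adjusted p = 0.0158) and 2.19 on day 1 (SE 0.30, limma adjusted p = 3.31e-05). That of Cd74 was 0.45 on day 2 (SE 0.28, limma adjusted p = 0.357) and 1.06 on day 1 (SE 0.27, limma adjusted p = 0.00424). That of H2-Ab1 was 0.51 on day 2 (SE 0.24, limma adjusted p = 0.186) and 0.84 on day 1 (SE 0.23, limma adjusted p = 0.00649). H2-Ob gave -0.13 on day 2 and 0.11 on day 1, neither called.

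On day 1 all 8 dust lungs had more Ctss and more Cd74 than each of the 4 saline lungs, a separation seen in 26.9% of all genes, and 7 of 8 had more H2-Ab1. On day 2 the dust lungs above the highest saline lung were 4 of 5 for Ctss, 3 of 5 for Cd74 and 3 of 5 for H2-Ab1, while 5.77% of all genes separated fully. The day 2 response minus the day 1 response was -0.83 for Ctss (SE 0.43, limma adjusted p = 0.301), -0.61 for Cd74 (SE 0.39, limma adjusted p = 0.375) and -0.33 for H2-Ab1 (SE 0.33, limma adjusted p = 0.576). limma called 6 of 711 genes (0.844%) in that test, none of them a member. That count rested on single lungs: it ran from 2 to 182 with 1 lung left out, was past 1.5 times the reported count or its inverse for 12 of the 23 lungs, and was 182 (25.6%) without Fat-1 male dust replicate 1 of day 2. With any other lung left out it was at most 16. The Ctss call on day 2 was lost without Fat-1 male dust replicate 1 of day 2, at 1.12, and without Fat-1 female saline replicate 1 of day 2, at 1.20. Summed neutrophil markers had a median of 4836 in day 2 dust lungs and 23556 in day 1 dust lungs, and their part in these values was not tested.

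Ratios between members within a lung are free of the scaling between lungs. Only their change between groups is given, because the count of a probe does not give the level of 1 gene against another. Ctss over H2-Ab1 was 1.15 higher on the log2 scale in dust lungs, at -0.46 ± 0.35 (SD, n = 13), than in saline lungs, at -1.61 ± 0.22 (SD, n = 10), a 2.22-fold change of the ratio. It lay above every saline lung in 12 of 13 dust lungs (two-sided permutation test, p = 4e-05, adjusted p = 8e-05 over the 6 ratios). Ctss over Cd74 was 1.05 higher, or 2.07-fold, and lay above every saline lung in 13 of 13 dust lungs (permutation test, adjusted p = 8e-05). Ctss counts therefore changed by more than those of the beta chain and the invariant chain in the same lungs.

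H2-Ab1 over H2-Ob was 0.63 higher in dust lungs (permutation test, adjusted p = 0.00142), and Cd74 over H2-Ob was 0.73 higher (permutation test, adjusted p = 0.00117). Cd74 over H2-Ab1 was 1.06 ± 0.23 in dust lungs (SD, n = 13) and 0.965 ± 0.095 in saline lungs (SD, n = 10), a difference of 0.10 (permutation test, p = 0.209, adjusted p = 0.209).

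In Fat-1 mice H2-Ab1 over H2-Ob was 0.92 higher in dust lungs and Cd74 over H2-Ob 1.13 higher (exact permutation tests, adjusted p = 0.00519 each, n = 6 and 5). In WT mice the differences were 0.36 and 0.37 and were not called (exact permutation tests, adjusted p = 0.212 each, n = 7 and 5). Cd74 over H2-Ab1 was 0.21 higher in Fat-1 dust lungs (exact permutation test, adjusted p = 0.0303) and differed by 0.006 in WT mice (exact permutation test, adjusted p = 0.944). Whether these ratios differed between genotypes was not tested. On day 1 alone Cd74 over H2-Ab1 was 0.22 higher in dust lungs (exact permutation test, adjusted p = 0.0162, n = 8 and 4), and on day 2 alone it differed by -0.06 (exact permutation test, adjusted p = 0.385, n = 5 and 6). The 8 dust lungs of day 1 included that Fat-1 female dust replicate 2. Ctss over H2-Ab1 was 0.88 higher on day 2 (exact permutation test, adjusted p = 0.0173) and 1.35 higher on day 1 (exact permutation test, adjusted p = 0.00808).

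**Figure D3:**
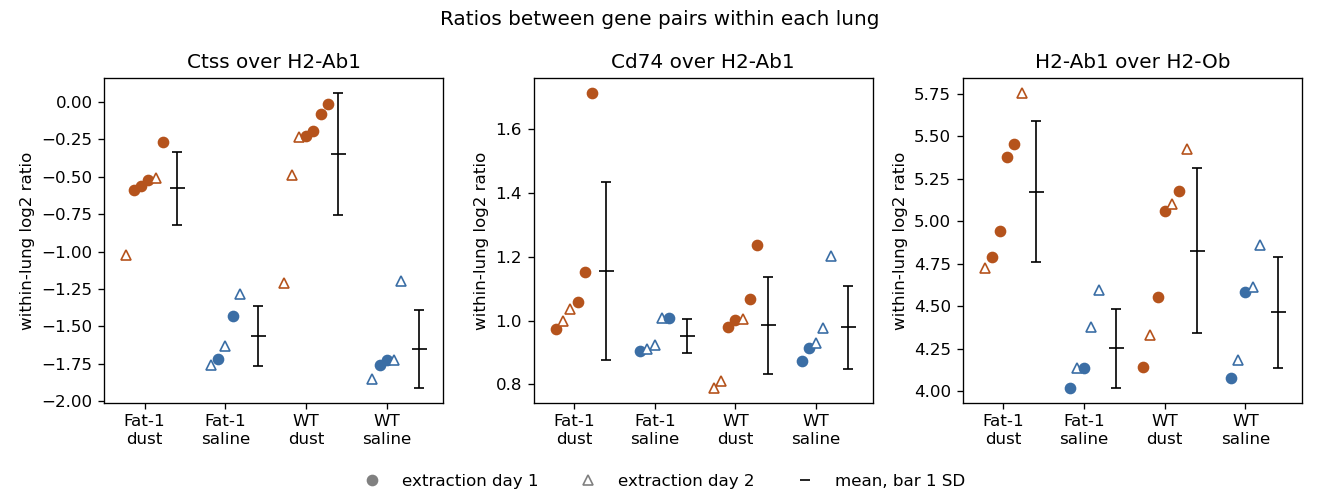
Within-lung log2 ratio (vertical axes) of Ctss over H2-Ab1, Cd74 over H2-Ab1, and H2-Ab1 over H2-Ob, by genotype and exposure. Circles are lungs of day 1, triangles lungs of day 2, and black marks the mean with 1 SD. The first ratio is higher in 12 of 13 dust lungs than in all saline lungs, and the second overlaps between exposures.

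Among lungs of 1 exposure, Cd74 and H2-Ab1 varied together. Over the 13 dust lungs Pearson's r of their log2 values was 0.96 (permutation p = 1e-05, adjusted 6e-05 over 12 relations) and Spearman's rho 0.90 (permutation p = 4e-05, adjusted 0.00024). With the 2 lungs farthest from the median of H2-Ab1 left out, r was 0.88. Over the 10 saline lungs r was 0.93 (permutation p = 1e-05) and rho 0.99 (permutation p = 1e-05), and r was 0.94 with 2 lungs left out. Within 1 day r was 0.96 in the 8 dust lungs of day 1 (exact permutation p = 0.00201) and 0.91 in the 6 saline lungs of day 2 (exact permutation p = 0.00139). The 5 dust lungs of day 2 and the 4 saline lungs of day 1 were not correlated, being fewer than 6. All points share the scale factor of their lung, and with lungs centred on their median r was 0.95 in dust and 0.92 in saline lungs.

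H2-Ob and H2-Ab1 gave r of 0.49 in dust lungs (permutation p = 0.0899, adjusted 0.12) and 0.34 in saline lungs (permutation p = 0.343, adjusted 0.412), with rho of 0.35 (permutation p = 0.246) and 0.56 (permutation p = 0.0984). With 2 lungs left out r was 0.34 in dust and -0.14 in saline lungs. Within 1 day it was 0.53 in dust lungs of day 1 (exact permutation p = 0.181) and 0.45 in saline lungs of day 2 (exact permutation p = 0.431).

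H2-Ob and Ctss gave r of 0.58 in dust lungs (permutation p = 0.0385, adjusted 0.0682) and rho of 0.75 (permutation p = 0.00467, adjusted 0.00854), with r at 0.64 when 2 lungs were left out and 0.39 with lungs centred on their median. In saline lungs r was 0.00 (permutation p = 0.992) and rho 0.21 (permutation p = 0.562), and r was 0.69 with 2 lungs left out. For H2-Ob with Ctss and with Cd74 the 2 lungs left out were those farthest from the median of H2-Ob. Within 1 day r was 0.67 in dust lungs of day 1 (exact permutation p = 0.0729) and -0.05 in saline lungs of day 2 (exact permutation p = 0.922). H2-Ob and Cd74 gave r of 0.59 in dust lungs (permutation p = 0.0455, adjusted 0.0682), 0.65 with 2 lungs left out, and rho of 0.44 (permutation p = 0.133, adjusted 0.16). In saline lungs their r was 0.16 (permutation p = 0.667) and rho 0.55 (permutation p = 0.105), and r was 0.60 with 2 lungs left out. Their r within 1 day was 0.55 in dust lungs of day 1 (exact permutation p = 0.133) and 0.22 in saline lungs of day 2 (exact permutation p = 0.622).

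Ctss and H2-Ab1 gave r of 0.88 in dust lungs (permutation p = 0.00062, adjusted 0.00248) and rho of 0.75 (permutation p = 0.0047, adjusted 0.00854), with r at 0.61 when 2 lungs were left out. In saline lungs r was 0.64 (permutation p = 0.0413, adjusted 0.0682) and rho 0.83 (permutation p = 0.00444, adjusted 0.00854), and r was 0.77 with 2 lungs left out. Within 1 day r was 0.91 in dust lungs of day 1 (exact permutation p = 0.00305) and 0.50 in saline lungs of day 2 (exact permutation p = 0.332). Ctss and Cd74 gave r of 0.83 in dust lungs (permutation p = 0.0022, adjusted 0.00528) and 0.84 in saline lungs (permutation p = 0.00162, adjusted 0.00486). With the 2 lungs farthest from the median of Cd74 left out these were 0.60 in dust and 0.90 in saline lungs. Their r within 1 day was 0.88 in dust lungs of day 1 (exact permutation p = 0.00109) and 0.77 in saline lungs of day 2 (exact permutation p = 0.0833).

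The genes whose log2 values were most like each member over the 23 lungs were read among the other 469 genes above the floor in every lung, as a description that includes the dust difference. H2-Ab1 was most like H2-Aa, the alpha chain of the same molecule (r = 0.976), then Cd74 (r = 0.969) and S100a11 (r = 0.954). Cd74 was most like H2-Aa (r = 0.984), H2-Ab1 (r = 0.969) and Nfkb1 (r = 0.951). Ctss was most like C1qc (r = 0.987), Adgre1 (r = 0.981) and C1qb (r = 0.978), genes of complement C1q and of the F4/80 antigen that mark tissue macrophages. H2-Ob was most like Ms4a1, which encodes the B cell antigen CD20 (r = 0.901), and H2-DMb2 was also among its 3 most alike genes (r = 0.692).

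After subtracting the 8 group means, the first gene was S100a11 for H2-Ab1 (r = 0.965), H2-Aa for Cd74 (r = 0.977), C1qc for Ctss (r = 0.948) and Ms4a1 for H2-Ob (r = 0.896). H2-DMb2 came next for H2-Ob (r = 0.860). Ctss ranked 27 among the genes most like H2-Ab1 by this measure, at r = 0.866, and H2-Ob ranked 189, at r = 0.519.

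**Figure D4:**
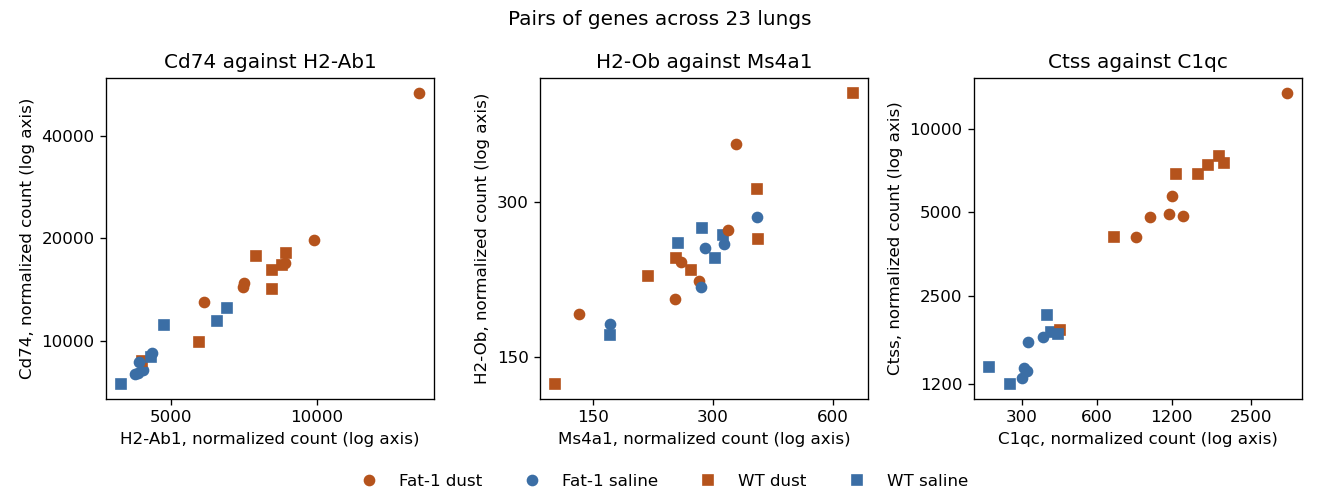
Normalized counts of Cd74 against H2-Ab1, H2-Ob against Ms4a1 and Ctss against C1qc in the 23 lungs, on log axes. Colour gives the exposure and shape the genotype. Ctss and C1qc are both higher in dust lungs, whereas dust and saline lungs overlap along the line of H2-Ob and Ms4a1.

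Another 8 class II pathway genes were on the panel, of which 7 were tested and 1 was at the floor in every lung. Of the 7, 5 were called higher in dust lungs and 0 lower, beside 43.3% of all genes called higher. Their median log2 fold change was 0.47 against 0.26 over all genes. Ctsd, the endosomal protease cathepsin D, had 16640 ± 5271 normalized counts in dust lungs (SD, n = 13) and 6287 ± 976 in saline lungs (SD, n = 10), with all 13 dust lungs above all 10 saline lungs. Its log2 fold change was 1.33 (SE 0.18, limma adjusted p = 2.64e-05). H2-Aa had 16174 ± 9029 in dust and 8794 ± 1378 in saline lungs, with 10 of 13 dust lungs above all saline lungs and a log2 difference of 0.77 (SE 0.19, limma adjusted p = 0.00288).

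H2-Eb1, the beta chain of H2-E, had 2340 ± 531 in dust and 1451 ± 486 in saline lungs, a log2 fold change of 0.70 (SE 0.17, limma adjusted p = 0.00241). Only 4 of 13 dust lungs lay above all saline lungs. The beta chains of the peptide editor H2-DM were called with lower fold changes. H2-DMb1 gave 0.44 (limma adjusted p = 0.0136) and H2-DMb2 0.47 (limma adjusted p = 0.0256). Ctsl, cathepsin L, gave 0.29 and was not called (limma adjusted p = 0.0571). Of the 3 genes shown whose promoters carried AGNAAC paired with GATTGG, H2-Eb1 and H2-DMb1 rose in dust lungs as deposited, while H2-Ob was at 0.07. With lungs centred on their median H2-Eb1 gave 0.31 (limma adjusted p = 0.0872) and H2-DMb1 0.05 (limma adjusted p = 0.707), neither called. H2-Aa, whose window held no AGNAAC, gave 0.77 as deposited and 0.38 when centred (limma adjusted p = 0.0413). With lungs centred on their median 2 of the 7 were called, Ctsd and H2-Aa, and the sign of Ctsl turned (-0.10). With housekeeping scaling 3 were called. Median centring moved the median of all genes by -0.39 on the log2 scale, housekeeping scaling by -0.14 and a common floor by -0.16. The called genes split into 81.3% higher in dust as deposited, 45.3% with median centring and 68.9% with housekeeping scaling.

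**Figure D5:**
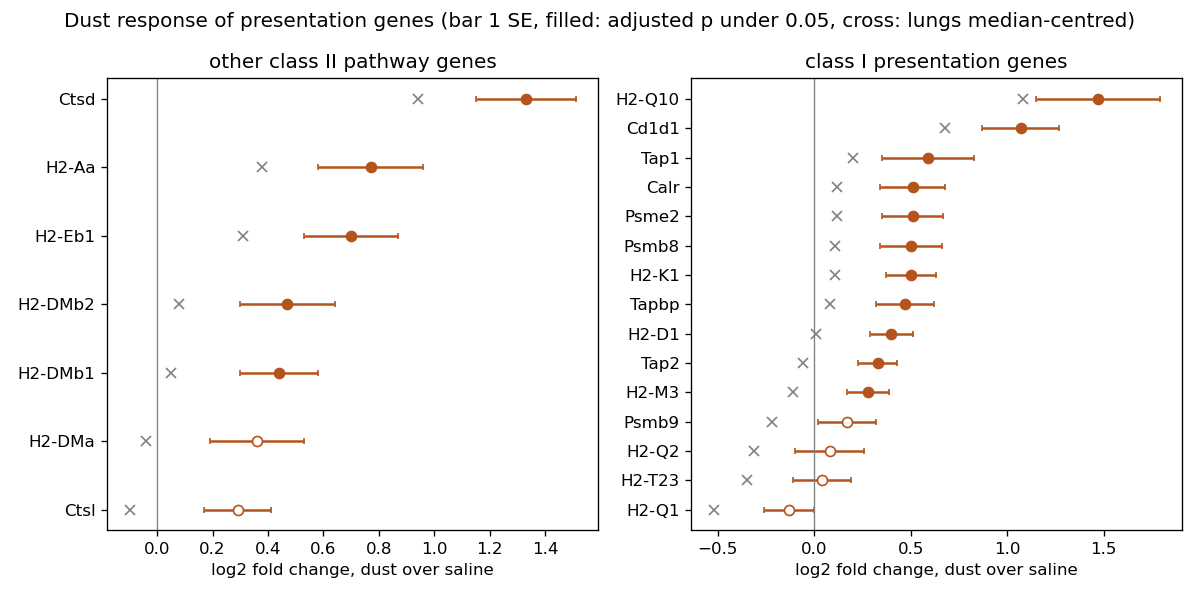
Log2 fold change of dust over saline (horizontal axes) with 1 SE for the 7 other class II pathway genes and 15 class I presentation genes tested. Filled points passed an adjusted p under 0.05, and crosses give the value with each lung centred on its median. Ctsd lies highest of the class II genes, at 1.33.

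Class I presentation, in which cells display peptides of their own proteins, was read for comparison. Of 15 tested genes 11 were called higher and 0 lower, with a median of 0.47, beside 43.3% of all genes called higher. With median centring 2 were called higher and 2 lower, so the direction of this list as a whole followed the scaling. H2-K1, a class I heavy chain, had 12256 ± 3090 in dust and 8398 ± 1114 in saline lungs, which is 0.50 on the log2 scale (limma adjusted p = 0.00475). H2-D1, another, gave 0.40 (limma adjusted p = 0.007). Cd1d1, which presents lipids, gave 1.07 (limma adjusted p = 0.000284). H2-Q10 gave 1.47 (limma adjusted p = 0.000989), with 2 saline lungs at the floor, and 0.56 with a common floor.

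Of 17 tested regulators of class II genes, cytokines, receptors and transcription factors, 11 were called higher and 0 lower, with a median of 0.47. The share called higher among all genes was 43.3%. With median centring 5 were called higher and 4 lower. Csf2ra, the GM-CSF receptor alpha chain, was higher by 1.40 in log2 (limma adjusted p = 6.75e-05), Il4ra, the IL-4 receptor alpha chain, 1.03 (limma adjusted p = 0.000386), and Tgfb1 0.74 (limma adjusted p = 0.000277). Tnf, encoding a cytokine of activated macrophages, had 324 ± 427 normalized counts in dust and 48.2 ± 23.3 in saline lungs, or 2.28 higher on the log2 scale (limma adjusted p = 0.000398), and 1.38 with a common floor. Ifng, the cytokine best known for inducing class II genes, and Il10 were at the floor in all 23 lungs and were named after their values were seen.

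Of 11 tested costimulators of antigen-presenting cells, 4 were called higher and 0 lower, with a median of 0.35. Among all genes 43.3% were called higher, a larger share than in this list. With median centring 4 were called higher and 3 lower. The ligands Cd80 and Cd86, which engage CD28 on T cells, gave log2 fold changes of 1.12 (limma adjusted p = 9.29e-05) and 1.33 (limma adjusted p = 0.000393), the second 0.76 with a common floor. Cd274, the inhibitory ligand PD-L1, gave 1.74 (limma adjusted p = 0.000365), and Cd83, a marker of mature dendritic cells, 0.84 (limma adjusted p = 0.00321). Of 6 genes listed for CD4 T cells, the cells that read class II, 4 were called higher and 1 lower. Over all genes 43.3% were called higher. The 6 were Cd28, Ctla4, Icos, Lag3, Gata3 and Cd27. Neither Cd4 nor Cd3d, Cd3e or Cd3g was on the panel, so these values cannot be assigned to CD4 T cells. Icos had 125 ± 91.1 in dust and 32.3 ± 14.3 in saline lungs (log2 fold change 1.76, limma adjusted p = 0.000161), and Ctla4 gave 1.96 (limma adjusted p = 0.00064) and Lag3 0.85 (limma adjusted p = 0.00859). Gata3 fell by 0.67 on the log2 scale in dust lungs (limma adjusted p = 0.00217). Ctla4 and Lag3 were each at the floor in 9 of 23 lungs, and with a common floor of 84.26 in every lung 1 of the 6 genes was called higher and 1 lower. Those were Ctla4 (0.59) and Gata3 (-0.28), while Icos (0.49) and Lag3 (0.07) were not called.

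Markers of the cells that carry class II molecules, and of other lung cells, were read beside the members. Every count of markers called, here and below, stands against 308 of 711 genes (43.3%) called higher and 71 called lower. Of 16 monocyte or interstitial macrophage markers 13 were called higher and 0 lower, with summed normalized counts of 10292 to 29381 in dust and 9131 to 12415 in saline lungs. C1qa, C1qb, C1qc and Adgre1 gave log2 fold changes of 1.79, 2.20, 1.94 and 1.88, beside 1.85 for Ctss. Of 8 alveolar macrophage markers 6 were called higher, among them Itgax (1.86), Cd68 (1.72), Marco (1.70) and Chil3 (1.23), with sums of 9754 to 42960 in dust and 7150 to 21361 in saline lungs. Of 10 conventional dendritic cell markers 7 were called higher, those with the smallest p being Fscn1 (1.13), Flt3 (1.08), Batf3 (1.05) and Ccl17 (1.74), and 1 lower, with sums of 1642 to 6552 in dust and 1247 to 2329 in saline lungs. With a common floor 3 of these 10 were called higher, and Flt3 (0.01) and Batf3 (0.00) were not.

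Of 4 B cell markers 2 were called higher, near the share of 43.3% over all genes. Ms4a1, the gene most like H2-Ob, had 297 ± 140 normalized counts in dust and 275 ± 68.4 in saline lungs, which differ by -0.01 in log2 (limma adjusted p = 0.975), and Cxcr5 gave -0.29 (limma adjusted p = 0.179). Btk, also made by myeloid cells, gave 0.97 (limma adjusted p = 0.000473). Fcer2a, the low-affinity IgE receptor, was at the floor in all 10 saline lungs and above it in 10 of 13 dust lungs. With a common floor of 84.26 in every lung its log2 difference was 0.04 and not called (limma adjusted p = 0.384), leaving 1 B cell marker called higher. The summed B cell markers ran from 382 to 1208 in dust and from 365 to 663 in saline lungs. Their median was 509 in day 2 and 743 in day 1 dust lungs, beside H2-Ob medians of 216 and 242. Saline lungs had the same order, with 456 on day 2 and 619 on day 1, beside H2-Ob medians of 224 and 254.

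Of 11 neutrophil markers, 10 were tested and 7 were called higher, those with the smallest p being Fpr2 (2.47), Fpr1 (1.08), Il1r2 (1.90, and 0.49 with a common floor) and Csf3r (2.62), with sums of 2198 to 43293 in dust and 1904 to 3853 in saline lungs. Elane was at the floor in every lung. Of 8 endothelial markers 5 were called lower and 2 higher, with Thbd at -1.08, Tek at -0.96, Cdh5 at -0.58 and Angpt2 at -0.56, and sums of 2496 to 8770 in dust and 8267 to 10702 in saline lungs. Of 6 fibroblast markers 4 were called higher, Tnc (1.67), Col3a1 (1.33), Fn1 (1.15) and Col1a2 (0.87), with sums of 8615 to 23592 in dust and 5993 to 10345 in saline lungs.

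Of 2 epithelial markers Lamp3, which type II alveolar cells and mature dendritic cells make, gave 0.29 (limma adjusted p = 0.0378) and Cdh1 0.00 (limma adjusted p = 0.99), with sums of 8120 to 12950 in dust and 7049 to 11532 in saline lungs. Of 2 plasmacytoid dendritic cell markers Irf7 gave 0.96 (limma adjusted p = 0.0108) and Ccr9 0.00, with sums of 127 to 768 in dust and 124 to 207 in saline lungs. Of 3 T or NK cell markers Gzma was called lower at -0.82 (limma adjusted p = 0.000633) and Nkg7 and Klrk1 were not called, with sums of 194 to 579 in dust and 315 to 658 in saline lungs. With median centring the sign of Lamp3 turned (-0.10), and Cdh1 and the 3 T or NK cell markers were called lower. The part of any of these cell types in the member values was not tested.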

How the data were processed

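RNA of left lungs was measured on an nCounter panel. The deposited values are a signal, probe counts scaled by the authors with 1 factor per lung, as read from the values, while panel and lane come per the file headers. The spacing of low values gives factors of 0.682 to 4.213, and 100% of values above the floor of 20 were whole multiples of it within 0.1 steps. Counts under the floor are hidden, so no count model was fitted. The software is not given in the sources used here. Depth ran from 110453 to 812429 recovered counts per lung.

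Groups follow the code of each extract. It holds day, genotype, sex, exposure and replicate, per the labels' protocols. The p-values measure the spread between lungs of separate mice. limma 3.58.1 in R 4.3.3 was fitted to log2(value + 1) with 8 group means over the 711 genes above the floor in at least 1 lung, with two-sided tests and Benjamini-Hochberg adjustment. Fold changes are on that scale. The day comparisons added extraction day and its product with exposure. The fit was tested on simulated data. Ratios and correlations used permutation tests with 100000 resamples, or exact ones where a group was under 10 lungs.

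The members, lists, comparisons and most alternatives were chosen with earlier results of these data known. By rule the text names the 4 members, up to 6 other class II genes and up to 4 genes of each other list with the smallest p, and 3 genes most like each member, of which 1 is not reported here. Alternatives were other scalings, floors, filters, pseudocounts, day, cartridge, replicate block, labels, weights and lungs left out. Python 3.11.15, numpy 2.4.6, pandas 2.3.3, scipy 1.17.1 and matplotlib 3.10.9 made tables and plots. Promoter sequences are from RefSeq.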

Additional observations from a re-analysis of the deposited data

Results flagged for a closer look

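A lung was examined further when its distance to its nearest neighbour on the log2 scale, divided by the log2 range of its group, passed Dixon's 95% critical value. Of 20 combinations of member and group tested 3 passed on that scale and 2 on the scale of normalized counts, and chance gives about 1 in 20.

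Cd74 in Fat-1 dust lungs had its highest value, 53402 normalized counts, in Fat-1 female dust replicate 2 of day 1, against 19717 in the next lung (ratio 0.706 in log2 and 0.834 in counts). The same lung had the highest Ctss of that group, 13504 against 5710 in the next (ratio 0.719 in log2 and 0.827 in counts), and the highest H2-Ab1 of all 23 lungs, 16272. It had the lowest summed alveolar macrophage markers of the dust lungs, 9754, and the lowest summed endothelial markers, 2496. The first sum is mostly Chil3, which alone averaged 21363 in dust lungs, against a median sum of 25413. Itgax, of the same list, was highest in this lung, at 917. The H2-Ob value of this lung was 390, the highest of the 6 Fat-1 dust lungs. The part of these measures in the member values was not tested. This lung was also held in doubt on technical measures. Without it Cd74, Ctss and H2-Ab1 kept their calls over all lungs, at log2 fold changes of 0.67, 1.74 and 0.62.

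H2-Ob in WT saline lungs had its lowest value, 166, in WT female saline replicate 1 of day 2, against 234 in the next lung (ratio 0.722 in log2, and 0.673 in counts, which did not pass). That lung, held in doubt on technical measures, had the highest summed alveolar macrophage markers of the saline lungs, 21361, and a summed B cell marker count of 391. Its Ms4a1 count was 166, the lowest of the WT saline lungs. The part of these measures in its H2-Ob value was not tested. Chil3 alone reached 19242 in the saline lung where it was highest.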

How the results depend on the processing

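Over 51 results and 2039 recomputed values, 2001 kept their side of the threshold (counts of genes, to within 1.5 times), and no called value reversed in any of them. The sign changed in 106 values uncalled before and after. Ctss over all lungs stayed called in all 43 alternatives (log2 fold change 1.43 to 2.19).

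Median centring ended the H2-Ab1 call on day 1 (0.36). Within day 1 alone, sexes pooled, the Fat-1 calls of Cd74 (1.23) and H2-Ab1 (0.96) were lost. Within day 2 alone those of H2-Ab1 over all lungs (0.56), of Ctss in WT (1.11) and of H2-Ab1 in Fat-1 (0.965) were lost. Within cartridge 1 alone 9 calls were lost, over all lungs Cd74 (0.91) and H2-Ab1 (0.70), in WT Ctss (1.73), in Fat-1 Cd74 (1.23), Ctss (2.05) and H2-Ab1 (0.96), on day 1 Cd74 (1.06) and H2-Ab1 (0.82), and on day 2 Ctss (0.29). Without the 4 lungs with differing labels Cd74 (1.24) and H2-Ab1 (1.01) in Fat-1 and Ctss on day 2 (1.29) were not called. The day 2 call of Ctss also went without the 2 lungs with a saturation message (1.18) and without the 4 lungs in doubt or with a message (1.24), both chosen after seeing the data. Apart from median centring, these fits used fewer lungs. H2-Ab1 in WT was called with groups from the characteristics (0.53), and array quality weights gave calls of Cd74 (0.69) and H2-Ab1 (0.64) in WT and of H2-Ab1 on day 2 (0.49); the cause was not tested.

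Other class II genes called higher, 5 in the reported fit, were 2 with median centring, 3 with housekeeping scaling, 1 within day 2, 2 within cartridge 1 and 3 without the lungs with differing labels. Within-lung ratios over H2-Ob lost their calls within day 2, H2-Ab1 at 0.61 and Cd74 at 0.54, and within cartridge 2, at 0.54 and 0.49. Cd74 over H2-Ab1 was called within day 1 (0.22) and cartridge 1 (0.22), which both hold Fat-1 female dust replicate 2 of day 1, at a ratio of 1.71. Leaving out single lungs changed calls in 2 results, Ctss on day 2 (1.12 to 1.64) and H2-Ab1 in WT (0.36 to 0.56). The day fit could not be fitted within cartridge 2.

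Replicate numbers were not used to pair lungs. In deviations from group means, lungs of the same day and number gave correlations of -0.446 to 0.738 over 65 pairs (median -0.01). Lungs of the same day and another number gave -0.525 to 0.765 over 49 pairs (median 0.002). With few lungs per group this does not settle whether the numbers pair lungs. With the number within its day as a block the dust fold changes were 1.63 for Ctss, 0.62 for Cd74 and 0.59 for H2-Ab1, all called, and calls over all genes were 240 higher and 37 lower, against 308 and 71. With array quality weights 31 genes were called higher and 66 lower in Fat-1 than in WT after dust, against 0, and 22 and 131 in the day difference, none of them a member.

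The number of lungs limits precision. In the most strongly scaled lung no value between 20 and 84.26 was seen, and the lowest member value of any lung was 133.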
